A study of Homo sapiens with 24 samples.

Results

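The SWI/SNF (BAF) chromatin remodeling subunits examined here were 10 genes: SMARCA4, SMARCA2, SMARCB1, SMARCC1, SMARCC2, SMARCD1, SMARCE1, ARID1A, ARID1B and PBRM1. They were chosen by name, as subunits of the complex, and all 10 were present in each of the 4 expression tables, out of 14316 genes that the tables share. RNA-Seq of poly-A RNA had been performed on 24 libraries from 3 established triple-negative breast cancer (TNBC) cell lines, in 8 groups of 3 biological replicates. Hs578T and HCC70 cells, both labelled wild type, had been sorted by FACS into breast cancer stem cells (BCSCs), which were CD24-CD44+ and ALDH+, and non-BCSCs, which had neither phenotype. MDA-MB-231 cells carried either a control sgRNA (sgCtrl) or KIF20A sgRNA 1 (KIF20A sg1, labelled KIF20A knockdown), or else an empty control vector (EV) or a KIF20A overexpression construct (KIF20A OE). Lentivirus for the MDA-MB-231 lines had been produced in a human embryonic kidney packaging line. By the paper and the data headers the sg1 comparison rests on 1 guide, while its sample titles read SG1, SG2 and SG3. KIF20A is a mitotic kinesin, and the study asked whether it acts on gene expression through SMARCA4. The paper proposes that KIF20A antagonizes SMARCA4 at oxidative phosphorylation genes, citing protein binding, promoter occupancy and SMARCA4 knockdown. The mRNA levels of SMARCA4 and its partners, given here, do not measure binding or occupancy.

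SWI/SNF complexes use the energy of ATP to slide or eject nucleosomes, with reported roles in activating and in repressing transcription. Each complex is built around a single ATPase, SMARCA4 (BRG1) or its paralog SMARCA2 (BRM). In the canonical BAF form the core holds SMARCB1, the SMARCC1 and SMARCC2 scaffolds, SMARCD proteins and the HMG-box protein SMARCE1. ARID1A and ARID1B are alternative subunits that define the canonical BAF form, and PBRM1, a bromodomain protein, defines the PBAF form. Genes of this family are recurrently mutated in human cancers, and cells that have lost 1 paralog can come to depend on the other.

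The members lie on 8 chromosomes of GRCh38 (GENCODE 44): SMARCA4 at chr19:10960932-11079426, SMARCA2 at chr9:1980290-2193624, SMARCB1 at chr22:23786931-23838009, SMARCC1 at chr3:47585269-47782106, SMARCC2 at chr12:56162359-56189567, SMARCD1 at chr12:50085200-50100707, SMARCE1 at chr17:40624962-40648654, ARID1A at chr1:26693236-26782104, ARID1B at chr6:156776020-157210779 and PBRM1 at chr3:52545352-52685917. Because the paralogs are close relatives, their canonical transcripts were compared for stretches of sequence that a read could not assign to 1 gene. None of the 3 pairs shared a window of 50 bases. The longest identical run measured 26 bases in SMARCA4 and SMARCA2, 29 bases in ARID1A and ARID1B, and 23 bases in SMARCC1 and SMARCC2. The first and the last of these runs are in coding sequence and are given here as the longest exact matches. Exact runs bear on how reads can be assigned and do not measure how similar the paralogs are. The SMARCA4/SMARCA2 run is in exon 8 of SMARCA4 (chr19:10991264-10991289, plus strand) and exon 7 of SMARCA2 (chr9:2056786-2056811, plus strand), and the SMARCC1/SMARCC2 run is in exon 9 of SMARCC1 (chr3:47710753-47710775, minus strand) and exon 9 of SMARCC2 (chr12:56181780-56181802, minus strand).
SMARCA4 and SMARCA2: gagaagctggagaagcagcagaagat
SMARCC1 and SMARCC2: ttcaatgaatggatgaatgagga

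Upstream sequence was available for 8 members in the RefSeq promoter table (GRCh38.p14), which did not list SMARCC1 and SMARCC2 and whose start sites can lie inside the GENCODE gene. The 250 bases before the annotated start held a median of 27 CpG dinucleotides in these 8 genes, compared with 11 over 35116 promoters, and a median GC content of 66.2% compared with 58.0%. SMARCA4 had the most CpG dinucleotides (44) and ARID1B the fewest (5). Each of 4 short motifs was searched for on both strands, none of which contains another, and motifs of 8 or more letters that were also tried are not reported here. GGGCGG (GC box) was found upstream of 5 members (SMARCA4, SMARCA2, SMARCD1, SMARCE1 and ARID1A) and in 42.6% of all promoters, CCAAT, bound by NF-Y, upstream of 4 members (SMARCB1, SMARCE1, ARID1B and PBRM1) and in 32.0%, and CCGGAAG (ETS site) upstream of SMARCA2 alone and in 8.52%. The core promoter element TATAAA was found upstream of no member and in 10.7% of all promoters. The windows of both ATPases and of SMARCB1 are shown with the matched letters in capitals. The ATPase ratio differed more between the sorted lines than that of the other paralog pairs. SMARCB1 was the member that differed most between the libraries labelled KIF20A OE and EV. The windows are SMARCA4 at chr19:10960780-10961029, SMARCA2 at chr9:2015097-2015346 and SMARCB1 at chr22:23786716-23786965, all on the plus strand.
SMARCA4: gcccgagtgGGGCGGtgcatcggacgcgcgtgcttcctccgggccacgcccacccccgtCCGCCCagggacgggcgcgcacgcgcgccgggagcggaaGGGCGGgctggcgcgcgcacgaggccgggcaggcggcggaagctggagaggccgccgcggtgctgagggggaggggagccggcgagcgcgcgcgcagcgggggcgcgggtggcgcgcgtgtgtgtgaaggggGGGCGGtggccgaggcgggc
SMARCA2: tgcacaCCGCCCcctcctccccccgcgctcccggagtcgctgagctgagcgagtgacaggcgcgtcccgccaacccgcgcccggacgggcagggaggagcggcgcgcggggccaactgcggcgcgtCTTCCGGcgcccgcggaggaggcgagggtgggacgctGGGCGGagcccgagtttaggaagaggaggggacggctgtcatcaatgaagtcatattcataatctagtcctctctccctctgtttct
SMARCB1: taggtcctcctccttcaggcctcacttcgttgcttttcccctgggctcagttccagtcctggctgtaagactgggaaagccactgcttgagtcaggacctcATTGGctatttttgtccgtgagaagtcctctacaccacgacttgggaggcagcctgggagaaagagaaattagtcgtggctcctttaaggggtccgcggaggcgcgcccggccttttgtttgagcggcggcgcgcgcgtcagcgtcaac

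Read depth, recovered from the values, ranged from 15971297 to 51018667 reads a library, and in the sorted lines it counts only genes with recovered reads. The KIF20A OE experiment was the shallowest (15971297 to 22182293 reads) and the sg1 experiment the deepest (41424338 to 51018667). Members other than SMARCE1 had at least 879 reads in every sorted library and 1662 in every sg1 library. In the OE experiment they had at least 231, and SMARCA2 had the fewest of them (231 to 343 reads). SMARCE1 had 222 to 329 reads in the sg1 experiment and 43 to 85 in the OE experiment. KIF20A itself, measured at 153, 173 and 156 normalized reads in sgCtrl, was at 122, 145 and 91.1 in KIF20A sg1, groups that did not overlap, with a log2 fold change of -0.45 (SE 0.16, adjusted p = 0.69, limma). In EV it was at 101, 143 and 124 CPM and in KIF20A OE at 1348, 269 and 896 CPM (log2 fold change 2.49, SE 0.51, adjusted p = 0.0025, limma). The KIF20A OE libraries stood apart from every other MDA-MB-231 group. The summed level of 6 mesenchymal breast markers was 6429 to 7072 CPM in EV and 375 to 830 CPM in KIF20A OE. CD44 was at 523 to 788 CPM in EV and at 0.125 to 1.23 CPM in KIF20A OE, with NT5E and AXL each under 1 CPM. The 5 genes reported from an embryonic kidney list (IRS4, LIN28B, PAX2, NEFL and NEFM), the identity of the packaging line, were each at 1 CPM or more in KIF20A OE, with a summed level of 1393 to 1944 CPM, compared with 0 to 0.048 CPM in EV, where each of the 5 was under 0.5. IRS4 was at 0 in EV and at 1219 to 1750 CPM in KIF20A OE. All 3 KIF20A OE libraries shared this profile, so no library without it was left to compare, and an effect of KIF20A on the members cannot be told apart from a difference in cell identity. In the sorted and sg1 libraries, all 6 mesenchymal genes were at 1 or more in every Hs578T, sgCtrl and KIF20A sg1 library. All 7 basal epithelial genes were at 1 or more in every HCC70 library. Presence alone did not separate the lines. Of the mesenchymal genes, 4 were also present in HCC70, and of the basal epithelial genes 5 in sgCtrl, 4 in KIF20A sg1 and 2 in Hs578T. The summed mesenchymal level was 9875 to 10805 TPM in Hs578T and 745 to 903 TPM in HCC70. The summed basal epithelial level was 320 to 423 TPM in Hs578T and 8926 to 10110 TPM in HCC70.

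The first question was which subunits these lines express, and TPM, a transcript abundance corrected for length, allowed the 10 members to be ranked within the sorted lines. In Hs578T non-BCSCs the scaffold SMARCC1 was highest at 98.6 ± 4.33 TPM (SD, n = 3). SMARCE1 (80.9 ± 3.60 TPM) and SMARCA4 (78.5 ± 2.77 TPM) followed with overlapping values, then SMARCB1 (73.9 ± 0.843 TPM), SMARCC2 (50.9 ± 1.15 TPM) and PBRM1 (39.6 ± 1.82 TPM). SMARCA2 came seventh at 32.8 ± 0.816 TPM, above ARID1A (27.0 ± 0.853 TPM), SMARCD1 (23.5 ± 1.45 TPM) and ARID1B (13.7 ± 0.719 TPM). In HCC70 non-BCSCs SMARCA2 was instead the highest of all at 245 ± 14.0 TPM, and it made up 28.9% of the summed level of the members, compared with 6.32% in Hs578T. SMARCC1 (131 ± 5.49 TPM) and SMARCA4 (104 ± 3.28 TPM) were next, and ARID1B was again last (24.0 ± 1.27 TPM). Between SMARCB1 (73.0 ± 5.37 TPM) and PBRM1 (56.1 ± 2.16 TPM) the order in HCC70 was loose, since SMARCB1 overlapped ARID1A (66.6 ± 2.23 TPM), SMARCE1 (59.5 ± 1.18 TPM) overlapped SMARCC2 (59.2 ± 0.833 TPM), and SMARCC2 overlapped PBRM1.

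Set against Hs578T, the non-BCSC level in HCC70 was 7.48 times as high for SMARCA2 and 2.47 times as high for ARID1A, a DNA-binding subunit of canonical BAF. For the other 8 members this ratio was between 0.736 (SMARCE1) and 1.75 (ARID1B). These tables were normalized separately and the labelled batch differs between them, so the ratios are descriptions without a test, and line and batch cannot be told apart. SMARCA2 also separated the MDA-MB-231 experiments. It was at 78.0, 79.0 and 68.3 normalized reads in sgCtrl and at 16.3, 11.6 and 13.6 CPM in EV, a 5.42-fold ratio of means, whereas the sgCtrl to EV ratio of the other 9 members was between 0.599 (SMARCD1) and 1.77 (SMARCE1). Both groups are control MDA-MB-231 cells, and again the tables were made separately. SMARCE1 had few reads in MDA-MB-231, as given above, with a level of 5.67 ± 1.39 normalized reads in sgCtrl and 3.19 ± 0.609 CPM in EV. In the annotation, 3487 of its 18470 exon bases are shared with a protein-coding gene on the same strand (ENSG00000264058), which was listed at 0 in the sg1 experiment and at 0.483 to 2.12 CPM in the OE experiment. How reads in shared exons were assigned is not given in the sources used here, and the part of these shared bases in the SMARCE1 value was not tested.

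**Figure D1:**
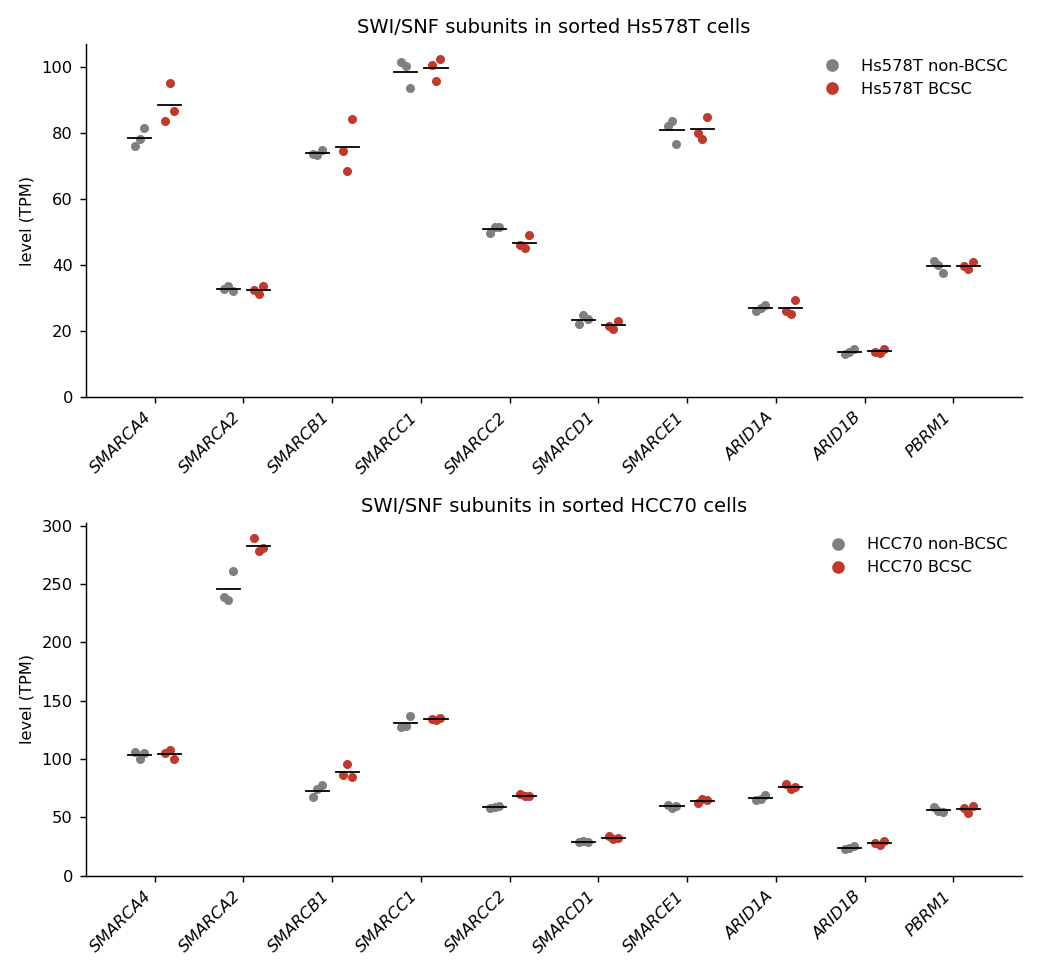
Level of each SWI/SNF subunit (TPM, linear axis from 0) in sorted Hs578T cells (top) and HCC70 cells (bottom). Points are single libraries, gray for non-BCSCs and red for BCSCs, and bars are group means. SMARCA2 is at 31.3 to 33.7 TPM in Hs578T and at 236 to 289 TPM in HCC70.

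In Hs578T, BCSCs were compared with non-BCSCs to ask whether subunit expression differs in the stem-like fraction. No member passed the test, out of 13324 genes tested, of which 953 passed (7.15% called), and the median log2 fold change of the 10 members was 0.01, compared with -0.01 for all genes. SMARCA4 had the largest log2 fold change. It was at 76.0, 78.1 and 81.4 TPM in non-BCSCs and at 83.7, 95.3 and 86.6 TPM in BCSCs, so that each BCSC library lay above each non-BCSC library. Its log2 fold change of 0.17 (SE 0.06) had an adjusted p of 0.13 (limma), and DESeq2 on the recovered reads gave 0.19 with an adjusted p of 0.013 in a test that called 10.7% of genes. SMARCC2, the scaffold paralog of SMARCC1, went the other way, from 49.6, 51.5 and 51.7 TPM to 45.9, 45.2 and 49.1 TPM. These groups did not overlap either, and the log2 fold change was -0.12 (SE 0.05, adjusted p = 0.19, limma). SMARCA4 was the 1 member to lie wholly higher in BCSCs, where 12.0% of all genes did so, and SMARCC2 the 1 member to lie wholly lower, as 17.0% of all genes did. SMARCD1, an adaptor that links the complex to transcription factors, measured -0.10 (95% interval -0.25 to 0.04) with overlapping groups. The other 7 members, SMARCA2, SMARCB1, SMARCC1, SMARCE1, ARID1A, ARID1B and PBRM1, had log2 fold changes between -0.02 and 0.03, and their 95% intervals stayed within -0.15 and 0.20.

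In HCC70 the members measured slightly higher in BCSCs. All 10 had a log2 fold change above 0, as did 56.0% of all genes tested, and their median was 0.18 compared with 0.02 for all genes. No member had an adjusted p under 0.05, in a comparison in which 374 of 13218 genes did (2.83% called). For 7 members every BCSC library was higher than every non-BCSC library, a pattern shown by 20.9% of all genes. The core subunit SMARCB1 was at 67.2, 74.0 and 77.8 TPM in non-BCSCs and at 86.6, 96.0 and 84.9 TPM in BCSCs, a log2 fold change of 0.29 (SE 0.07, adjusted p = 0.077, limma). SMARCC2 was at 58.4, 59.3 and 60.0 TPM and then at 69.6, 68.1 and 68.1 TPM. Its log2 fold change of 0.21 (SE 0.05) had the lowest adjusted p of the members, 0.060 (limma). SMARCA2, the major ATPase transcript of this line, went from 239, 236 and 261 TPM to 289, 278 and 281 TPM (0.21, SE 0.06, adjusted p = 0.093, limma).

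Both ARID1 genes followed the same course in HCC70. ARID1A was at 65.2, 65.5 and 69.2 TPM in non-BCSCs and at 78.4, 74.3 and 75.9 TPM in BCSCs (log2 fold change 0.19, SE 0.05, adjusted p = 0.086, limma). ARID1B went from 22.8, 23.7 and 25.4 TPM to 28.5, 26.6 and 29.9 TPM (0.23, SE 0.07, adjusted p = 0.10, limma). Neither pair of groups overlapped. SMARCD1, at 28.7, 29.7 and 29.2 TPM and then 34.3, 31.4 and 32.5 TPM, and SMARCE1, at 60.7, 58.4 and 59.5 TPM and then 62.4, 65.3 and 65.3 TPM, were separated by smaller margins (0.16 and 0.11). The remaining members lay near 0. SMARCA4 was at 106, 99.8 and 105 TPM in non-BCSCs and at 105, 108 and 100.4 TPM in BCSCs, with a log2 fold change of 0.01 (95% interval -0.11 to 0.13), SMARCC1 measured 0.04 (-0.08 to 0.16) and the PBAF subunit PBRM1 0.02 (-0.12 to 0.17). When libraries were rescaled by the median of ratios, which lowered the median of all genes by 0.03, SMARCA4 and PBRM1 turned slightly negative (-0.017 and -0.004), and 8 of 10 members stayed above 0. The HCC70 calls depended on the tool. DESeq2 on the recovered reads gave adjusted p-values of 0.033 for SMARCC2, 0.040 for ARID1B, 0.044 for SMARCA2 and 0.045 for SMARCB1, where it called 8.83% of all genes, while edgeR called no member and 5.42% of all genes.

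**Figure D2:**
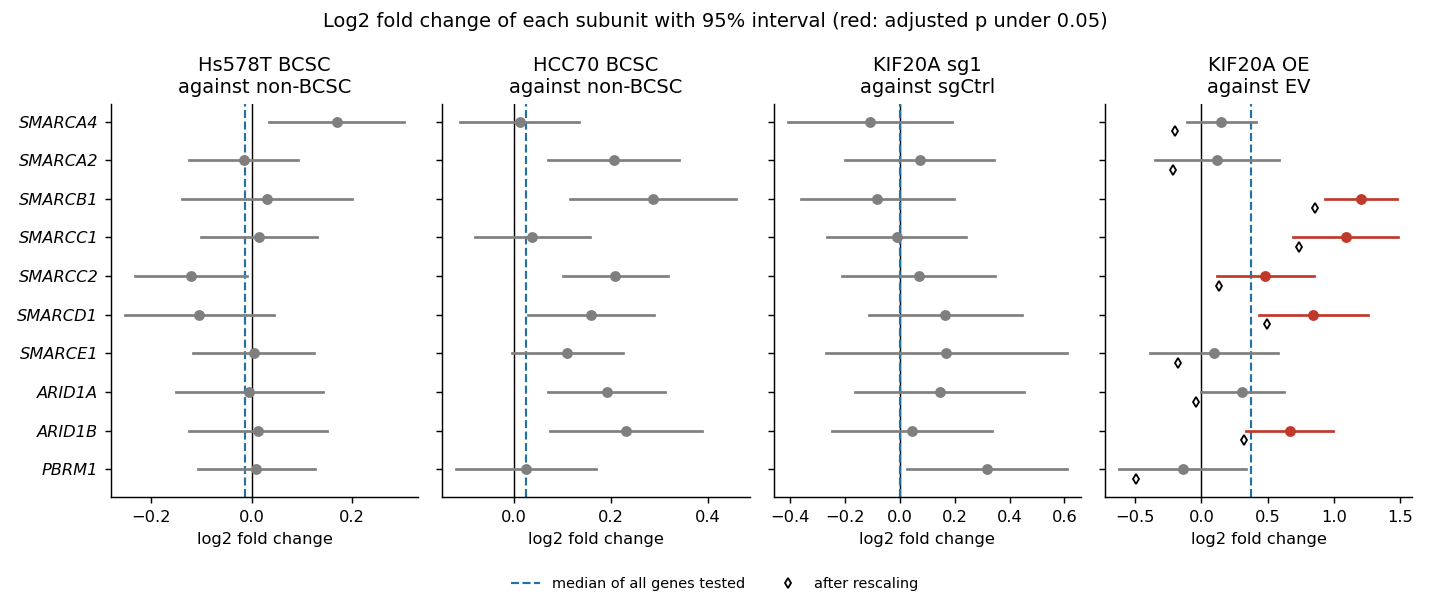
Log2 fold change of each subunit (x axis, with its own range in each panel) in the 4 comparisons, with 95% intervals from limma. Red marks an adjusted p under 0.05, dashed lines the median of all genes tested, and open diamonds in the last panel the values after rescaling by the median of ratios. All 10 points lie above 0 in HCC70, and 5 are red for KIF20A OE against EV.

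Whether the fraction effect differed between the lines was tested by an interaction term over the 12 sorted libraries. SMARCC2 was the single member that passed: the BCSC effect was lower in Hs578T than in HCC70 by 0.33 on the log2 scale (interaction -0.33, SE 0.06, adjusted p = 0.011, limma), in a test that called 7.11% of 11668 genes. As given above, its level was lower in each Hs578T BCSC library than in any Hs578T non-BCSC library and higher in each HCC70 BCSC library than in any HCC70 non-BCSC library. It stayed under an adjusted p of 0.05 in all 16 alternatives tried (0.0074 to 0.049). SMARCA2 (-0.22, SE 0.07, adjusted p = 0.074, limma) and SMARCD1 (-0.26, SE 0.08, adjusted p = 0.076, limma) came next without passing. Leaving out 1 library brought some of these past the threshold: without the third HCC70 non-BCSC library SMARCA2 had an adjusted p of 0.036 (limma), and without the third Hs578T BCSC library SMARCD1 and ARID1A had adjusted p-values of 0.042 and 0.041 (limma). The interaction was above 0 for 1 of the 10 members, as for 42.0% of all genes, with a median of -0.21 compared with -0.04 for all genes. That member was SMARCA4 with 0.16 (SE 0.08, adjusted p = 0.21, limma), being higher in Hs578T BCSCs and level in HCC70. Of the 719 exon bases that SMARCC2 shares with MYL6, all are on the opposite strand, and 191 more are shared with a long noncoding RNA on its own strand.

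The KIF20A sg1 cells were compared with sgCtrl to ask whether the subunits depend on KIF20A in MDA-MB-231. No member changed past the threshold in KIF20A sg1, and neither did any other of the 12852 genes tested with limma (0% called). Without adjustment, 899 genes (7.00%) had p under 0.05, edgeR called 0 genes and DESeq2 called 11 (0.0856%), none of them a member. SMARCA4 was at 303, 281 and 222 normalized reads in sgCtrl and at 244, 254 and 243 in KIF20A sg1. The sg1 values lay inside the wider sgCtrl range, and the log2 fold change was -0.11 (95% interval -0.41 to 0.19). PBRM1 had the largest log2 fold change, from 142, 114 and 131 to 156, 183 and 145. It was the member whose groups did not overlap, as was the case, in the higher direction, for 5.73% of all genes, and its log2 fold change was 0.32 (SE 0.13, adjusted p = 0.69, limma). SMARCA2 was at 78.0, 79.0 and 68.3 and then at 84.9, 80.4 and 71.8, with overlapping groups (0.07, 95% interval -0.20 to 0.34). The other 7 members ranged from -0.08 (SMARCB1) to 0.17 (SMARCE1) with overlapping groups. The median over the 10 members was 0.07, compared with 0.00 for all genes. The third sgCtrl library was the lowest of its group for SMARCA4, SMARCA2, SMARCC2, ARID1A and ARID1B, and without it limma called 144 genes but no member.

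The libraries labelled KIF20A OE showed larger differences from EV, and their marker genes also differed from EV as described above. In all, 5 members were higher in KIF20A OE and none was lower, where 69.7% of 15265 genes were called (46.2% higher, 23.4% lower). SMARCB1 showed the largest difference, from 111, 122 and 126 CPM in EV to 292, 298 and 247 CPM in KIF20A OE, a 2.33-fold ratio and a log2 fold change of 1.21 (SE 0.12, adjusted p = 4.0e-05, limma). SMARCC1 went from 183, 212 and 200.1 CPM to 353, 554 and 387 CPM (1.09, SE 0.17, adjusted p = 6.3e-04, limma), with a spread among the KIF20A OE libraries that exceeded that of EV. SMARCD1 was at 82.8, 134 and 116 CPM and then at 184, 217 and 190.1 CPM (0.85, SE 0.18, adjusted p = 0.0031, limma). These 3 core subunits were the ones that remained called after rescaling.

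ARID1B was at 62.9, 49.7 and 65.6 CPM in EV and at 95.6, 103 and 85.4 CPM in KIF20A OE (log2 fold change 0.67, SE 0.14, adjusted p = 0.0033, limma), and SMARCC2 at 113, 152 and 105 CPM and then at 188, 168 and 157 CPM (0.48, SE 0.16, adjusted p = 0.024, limma). ARID1A, from 125, 156 and 159 CPM to 194, 188 and 162 CPM, also had groups that did not overlap, but it did not pass (0.31, SE 0.14, adjusted p = 0.071, limma). Altogether 6 members lay wholly higher in KIF20A OE, and so did 48.9% of all genes. The ATPases showed smaller differences. SMARCA4 was at 349, 338 and 363 CPM in EV and at 353, 431 and 386 CPM in KIF20A OE, with a log2 fold change of 0.15 (95% interval -0.11 to 0.41), and SMARCA2 at 16.3, 11.6 and 13.6 CPM and then at 17.1, 12.0 and 16.3 CPM (0.12, -0.35 to 0.58). SMARCE1 measured 0.10 (-0.39 to 0.58), and PBRM1, at 138, 185 and 189 CPM and then at 136, 208 and 127 CPM, measured -0.14 (-0.62 to 0.34). Groups overlapped for these 4 members. In bulk RNA, fewer cells of a type and less RNA per cell cannot be told apart.

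The scale of the OE experiment bears on every one of these values, since the median log2 fold change over all genes was 0.37, and rescaling by the median of ratios lowered that median by 0.33. After rescaling, the median of the members fell from 0.40 to 0.05, compared with 0.04 for all genes, 5 members lay above 0 and 5 below, and 34.3% of genes were called higher and 32.5% lower. SMARCB1 (0.86, adjusted p = 2.2e-04), SMARCC1 (0.74, adjusted p = 0.0045) and SMARCD1 (0.50, adjusted p = 0.027) remained called with limma. ARID1B (0.32, adjusted p = 0.079, limma) and SMARCC2 (0.13, adjusted p = 0.48, limma) did not. SMARCA4 turned from 0.15 to -0.20, SMARCA2 from 0.12 to -0.21, SMARCE1 from 0.10 to -0.17 and ARID1A from 0.31 to -0.04, none of them called on either scale, and PBRM1 reached -0.49 (adjusted p = 0.054, limma). SMARCB1 shares 2923 of its 16526 exon bases with DERL3 on the opposite strand. DERL3 was at 0.059 to 0.435 CPM in EV and at 5.41 to 7.01 CPM in KIF20A OE.

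**Figure D3:**
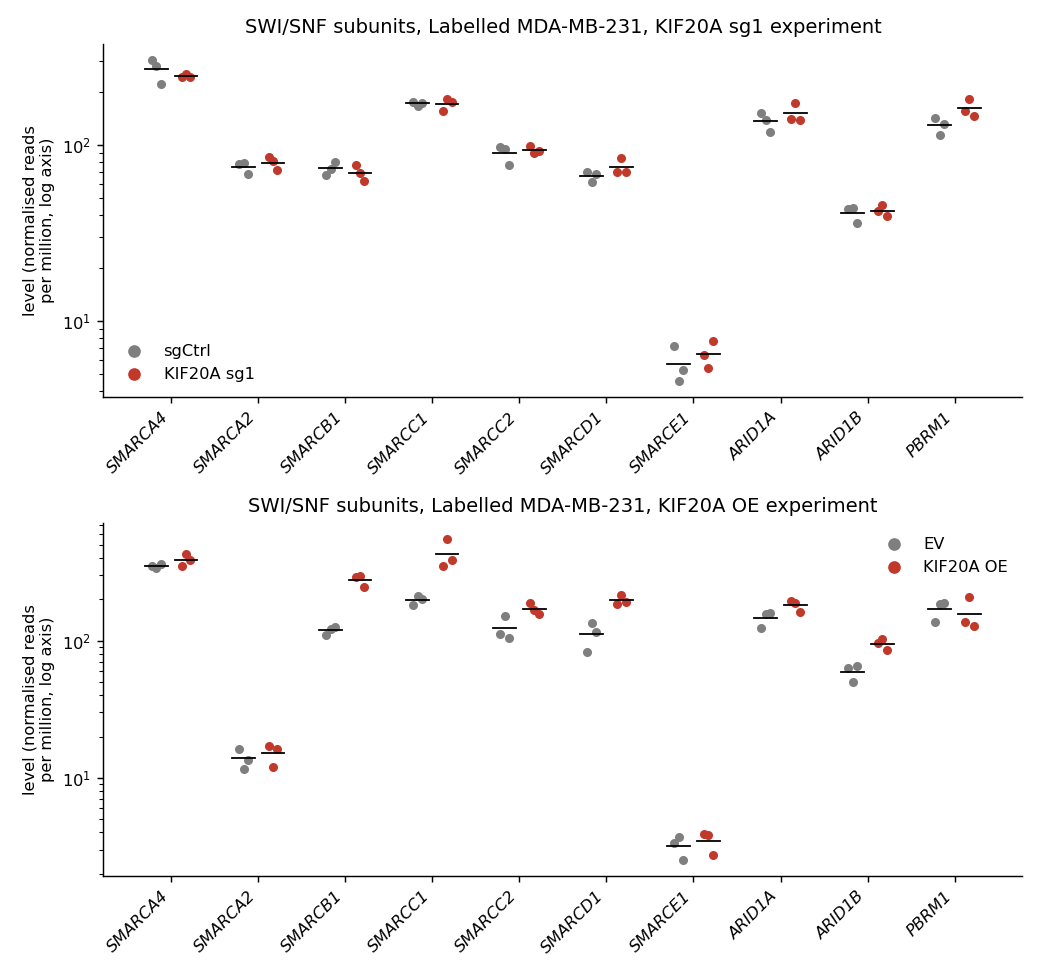
Level of each SWI/SNF subunit in the libraries labelled MDA-MB-231 (normalized reads, log axis) in the sg1 experiment (top) and the OE experiment (bottom). Points are single libraries, gray for the control group and red for KIF20A sg1 or KIF20A OE, and bars are group means. Values are not corrected for length, so genes should not be ranked against each other. SMARCB1 and SMARCC1 separate in the bottom panel, and SMARCA4 overlaps in both panels.

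Since a ratio of 2 paralogs within a library does not depend on scaling, 3 ratios were followed through the 4 comparisons, giving 12 exact two-sided permutation tests. With 3 libraries against 3, no exact permutation test could go below p = 0.1. The log2 ratio of SMARCA4 to SMARCA2 was 1.22, 1.21 and 1.35 in Hs578T non-BCSCs and 1.37, 1.61 and 1.36 in BCSCs, which corresponds to mean ratios of 2.39 and 2.73. In HCC70 the order of the ATPases was inverted, with -1.17, -1.24 and -1.32 in non-BCSCs and -1.46, -1.37 and -1.49 in BCSCs, which corresponds to 0.422 and 0.369 TPM of SMARCA4 per TPM of SMARCA2. The BCSC difference was thus 0.19 in Hs578T and -0.20 in HCC70, and in both lines the groups did not overlap (exact permutation p = 0.1 in each, adjusted p = 0.3 over the 12 tests). SMARCC1 to SMARCC2 behaved likewise, with a difference of 0.14 in Hs578T and -0.17 in HCC70 (exact permutation p = 0.1 in each, adjusted p = 0.3). ARID1A to ARID1B differed by only -0.02 and -0.05 in the sorted lines, with overlapping groups. In KIF20A sg1 the SMARCA4 to SMARCA2 ratio differed by -0.18 (exact permutation p = 0.2), and in KIF20A OE by 0.03 (exact permutation p = 1.0), on a ratio that was already 25.5 in reads in EV because of the low SMARCA2 level there. None of the 12 tests reached an adjusted p under 0.3.

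**Figure D4:**
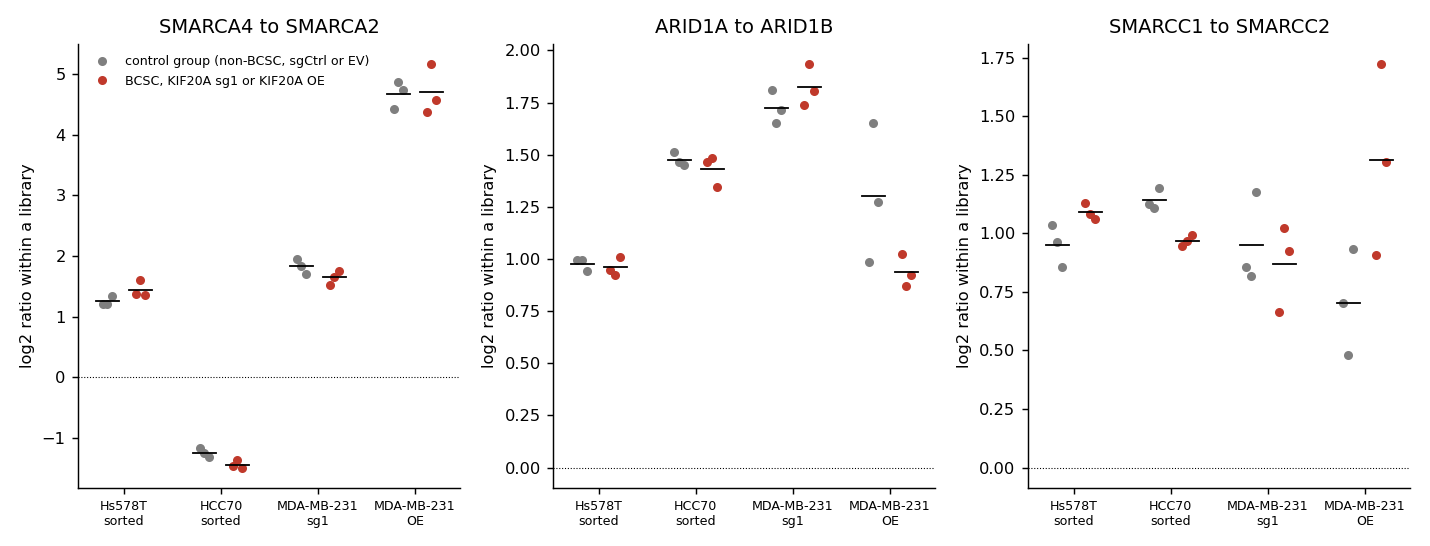
Log2 ratio of paralog levels within each library (y axis) for SMARCA4 to SMARCA2 (left), ARID1A to ARID1B (middle) and SMARCC1 to SMARCC2 (right). Gray points are libraries of the control group, red points those of BCSCs, KIF20A sg1 or KIF20A OE, and bars are group means. Ratios are of TPM in the sorted lines and of reads in the libraries labelled MDA-MB-231, so levels compare only within a line. SMARCA4 to SMARCA2 is positive in Hs578T and in the libraries labelled MDA-MB-231, and negative in HCC70.

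The members were then set beside 21 other SWI/SNF subunits and 19 ATPases of other remodeler families. Among the other subunits, SMARCD3, an alternative to SMARCD1, was lower in Hs578T BCSCs, from 19.6, 19.8 and 19.9 TPM to 15.3, 15.6 and 17.7 TPM (log2 fold change -0.28, SE 0.06, adjusted p = 0.038, limma). It was the 1 of 18 tested that passed, where 7.15% of all genes did, and it passed in 5 of 13 alternatives (adjusted p = 0.017 to 0.15, limma, edgeR or DESeq2). BCL7C, an accessory subunit, was the 1 of 17 that passed in HCC70, where 2.83% of all genes did, and was lower in BCSCs, from 148, 138 and 127 TPM to 105, 106 and 93.7 TPM (-0.43, SE 0.08, adjusted p = 0.032, limma), while in Hs578T its groups overlapped at 0.15 (SE 0.13, adjusted p = 0.54, limma). The HCC70 call held in 7 of 13 alternatives (adjusted p = 2.9e-05 to 0.11, limma, edgeR or DESeq2). The interaction for BCL7C was 0.58 (SE 0.16, adjusted p = 0.049, limma), and it passed in 4 of 16 alternatives (adjusted p = 0.012 to 0.11), not including rescaling (0.63, adjusted p = 0.053, limma). Of the other remodeler ATPases, ERCC6 was higher in Hs578T BCSCs (21.4, 22.1 and 21.0 TPM, then 26.6, 26.6 and 27.5 TPM, with a log2 fold change of 0.31, SE 0.04, adjusted p = 0.0075, limma), the 1 of 17 that passed, and it passed in all 13 alternatives. SMARCA1, an ISWI ATPase, was lower in HCC70 BCSCs (41.1, 36.6 and 40.6 TPM, then 30.3, 28.0 and 29.0 TPM), the 1 of 19 that passed (-0.43, SE 0.06, adjusted p = 0.022, limma), with an interaction of 0.37 (SE 0.09, adjusted p = 0.039, limma). Its HCC70 call held in 9 of 13 alternatives and its interaction in 6 of 16 (adjusted p = 0.013 to 0.091, limma). These single calls are values of the named genes and not a result about either list. Neither list had a member past the threshold in KIF20A sg1.

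In KIF20A OE, 12 of 20 other subunits tested were higher and 7 lower, and 11 of 19 other ATPases were higher and 2 lower, where 46.2% of all genes were called higher and 23.4% lower. On the log2(value + 1) scale, which understates low genes, the largest rises among subunits were SMARCD3 (5.09, 3.19 and 7.41 CPM in EV, 46.9, 58.7 and 43.1 CPM in KIF20A OE, with a log2 fold change of 3.07, adjusted p = 2.1e-05, limma), the transcription factor BCL11A (2.84) and BCL7A (2.17). BCL11B, close behind at 2.14, was low in EV (0.190, 0.242 and 0.412 CPM) and at 5.70, 2.34 and 6.96 CPM in KIF20A OE, so by the ratio of means it differed most (17.8-fold, compared with 9.48-fold for SMARCD3), and it was named after its values were seen. The largest falls were BICRAL, a subunit of the non-canonical form, which dropped from 79.3, 66.9 and 76.7 CPM to 15.4, 10.4 and 12.9 CPM (-2.45, adjusted p = 5.9e-06, limma), ACTB (-0.90) and DPF3 (-0.87). Among the ATPases the largest rises on the same scale were those of the chromodomain helicase CHD7 (2.10), of CHD1L (1.42), which carries a macro domain, and of SRCAP (1.37). By the ratio of means CHD1L (5.19-fold) came before CHD7, and CHD5 (3.04-fold) before SRCAP (2.85-fold), but the ratios of CHD1L and CHD5 rest on few reads. In EV, CHD1L was at 0.588 to 0.870 CPM and CHD5 at 0.294 to 0.857 CPM. Over the libraries of this comparison they had 10 to 84 and 5 to 61 reads. CHD2 (-0.35) and INO80 (-0.30) fell. After rescaling, 11 other subunits were higher and 8 lower, and 6 other ATPases were higher and 5 lower, where 34.3% of all genes were called higher and 32.5% lower. Before rescaling, the 10 members ranged from -0.14 to 1.21, the 20 other subunits from -2.45 to 3.07 and the 19 other ATPases from -0.35 to 2.10. A range tends to widen with the number of genes, so these ranges are descriptions without a test. All named shifts stand beside the change in marker genes of these libraries, whose part in them was not tested.

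**Figure D5:**
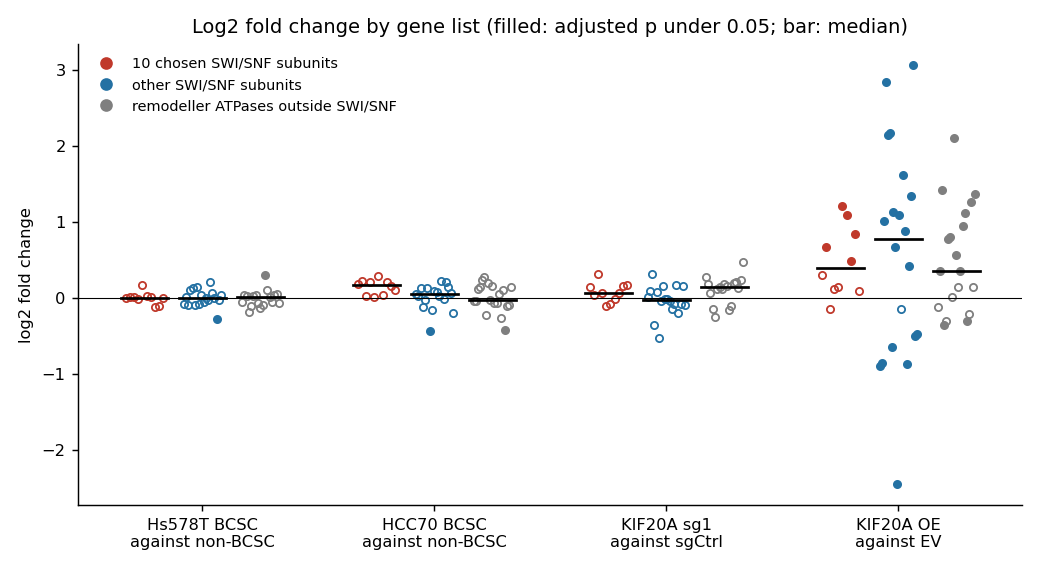
Log2 fold change (y axis) of the 10 chosen SWI/SNF subunits (red), the other SWI/SNF subunits (blue) and ATPases of other remodelers (gray) in the 4 comparisons. Filled points have an adjusted p under 0.05 (limma) and bars are list medians. The points lie between -0.52 and 0.47 except for KIF20A OE against EV, where they reach from -2.45 to 3.07.

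Finally, genes whose pattern over the 24 libraries was most like that of each ATPase were listed, after each gene was centered and scaled within its table, among 6778 genes with a mean of at least 10 in every table. For SMARCA4 these were DDRGK1 (Pearson r = 0.83), SNRNP70 (0.82), STRN4, TAOK2 and SAFB2 (0.80 each). For SMARCA2 they were LAMC1 (0.85), COPA (0.83), PAN2 (0.82), AP3S2 and CDK5RAP2 (0.80 each). These are descriptions over libraries that share lines, batches and controls. No member was among the 5 genes most like either ATPase. SMARCA4 and SMARCA2 themselves had r = -0.02. Of the members compared, SMARCC2 and ARID1B were about equally close to SMARCA2 (0.58 each, ranks 185 and 188), and ARID1B was the closest to SMARCA4 (0.36, rank 742). SMARCE1 had a mean under 10 in MDA-MB-231 and was not compared.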

How the data were processed

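The members and gene lists were chosen with earlier results of these data known. Per the submitters' processing notes, the authors aligned reads with HISAT2 2.0.5 to GRCh38 and counted genes with featureCounts 1.5.0-p3; assignment of shared reads is not given in the sources used here. The authors deposited TPM for Hs578T and HCC70 and CPM for the OE experiment. The values deposited for the sg1 experiment are a signal, reads divided by 1 factor per library, close to CPM. In the sg1 and OE experiments, whole reads were recovered from the step size of the values (tolerance 0.05). For TPM they were recovered from whole-number ratios within each gene, for 18125 of 19283 genes in Hs578T and 17222 of 18248 in HCC70. In simulated TPM tables reads were recovered for 2908 (Hs578T) and 2921 (HCC70) of 3000 genes, of which 97.2% were exact. The main test was limma 3.58.1 with a trend on log2(value + 1), two-sided, over genes with a mean of at least 1, each comparison alone on 6 libraries, with Benjamini-Hochberg adjustment over all genes tested. A fold change is on the log2(value + 1) scale and understates low genes. This took the place of the study's DESeq2 because TPM and CPM are not counts. Alternatives were pseudocount 0.1, no minimum, a minimum mean of 10, rescaling by the median of ratios, count tests on those reads (DESeq2 1.42.0, edgeR 4.0.16), a replicate block, and the removal of single libraries. In 10 simulations per comparison, limma called 98.7% to 100% of 2-fold changes in single comparisons, with 4.99% to 7.25% of calls false. The simulated reads had the same dispersion for every gene, so these rates do not carry over to smaller changes or to more variable libraries. Other genes were named if among the 3 largest rises or falls past the threshold in their list, KIF20A in its own experiments, and the 5 genes most like each ATPase. Of the embryonic kidney marker list, 1 gene is not reported here and was left out of its sums. Intervals cover the spread between replicates. R 4.3.3 and Python 3.11.15 were used.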

Additional observations from a re-analysis of the deposited data

Results flagged for a closer look

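The BCSC effect differed between Hs578T and HCC70, by the interaction test, for 3 of the 42 SWI/SNF subunits and other remodelers tested (7.14%), about the share of all genes that passed (7.11%). For SMARCC2 the effect in Hs578T minus that in HCC70 was -0.33 on the log2 scale (adjusted p = 0.011, limma), for the accessory subunit BCL7C it was 0.58 (adjusted p = 0.049), and for the ISWI ATPase SMARCA1 it was 0.37 (adjusted p = 0.039). SMARCC2 passed in all 16 alternatives, BCL7C in 4 and SMARCA1 in 6. After rescaling by the median of ratios BCL7C had an adjusted p of 0.053 and SMARCA1 of 0.013 (limma). Cell line and labelled batch coincide in these libraries and cannot be told apart.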

How the results depend on the processing

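No member was called in the sorted or sg1 comparisons with a pseudocount of 0.1, with no minimum, with the replicate block or with any library left out. The exceptions to 0 called members were DESeq2 in Hs578T (1) and HCC70 (4) and a minimum mean of 10 in HCC70 (1). In KIF20A OE, DESeq2, edgeR and the rescaled fit each called 3 members, and the members' median became 0.04, 0.039 and 0.048. In HCC70 it became 0.146 when rescaled. Genes called moved to 1633 with edgeR in Hs578T, to 1167 (DESeq2), 716 (edgeR), 178 (no minimum) and 231 (rescaled) in HCC70, and to 11 with DESeq2 in KIF20A sg1. Leaving out 1 library gave 343 to 865 genes in Hs578T (390, 486 and 343 without BCSC replicate 1 and non-BCSC replicates 1 and 2), 32 to 270 in HCC70 (32, 95 and 79 without BCSC replicates 1, 2 and 3, and 127 and 191 without non-BCSC replicates 2 and 3), 0 to 144 in KIF20A sg1 (144 without sgCtrl replicate 3 and 5 without KIF20A sg1 replicate 2) and 1 to 3 members in the interaction. Correlations of same-numbered libraries, taken on deviations from their group means, ranged from -0.161 to 0.185. Every library correlated best with its own number in KIF20A OE only. With 3 libraries per group, these values cannot show whether replicate numbers pair the samples. With the replicate block, 128 genes were called in HCC70, while the count of called members stayed at 0, 0, 0 and 5 in the 4 comparisons and at 1 in the interaction. The causes were not tested.

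Members near 0 changed sign. With DESeq2, edgeR and rescaling in turn, Hs578T SMARCA2 became 0.004, 0.002 and 0.004 and ARID1A 0.017, 0.015 and 0.015, while HCC70 SMARCA4 became -0.016, -0.016 and -0.017 and PBRM1 -0.004, -0.003 and -0.004. In KIF20A OE, in the same order, SMARCA4 became -0.196, -0.196 and -0.199, SMARCA2 -0.228, -0.226 and -0.211, SMARCE1 -0.235, -0.233 and -0.174, and ARID1A -0.041, -0.042 and -0.04. SMARCC1 became 0.003 with edgeR in KIF20A sg1, and rescaling gave interactions of 0.027 for SMARCC1 and 0.033 for PBRM1. With single libraries left out, Hs578T values spanned -0.043 to 0.009 (SMARCA2), -0.048 to 0.101 (SMARCB1), -0.021 to 0.043 (SMARCC1), -0.032 to 0.029 (SMARCE1), -0.067 to 0.038 (ARID1A), -0.026 to 0.051 (ARID1B) and -0.027 to 0.037 (PBRM1). In HCC70 they spanned -0.014 to 0.039 (SMARCA4) and -0.012 to 0.072 (PBRM1), in KIF20A sg1 -0.059 to 0.055 (SMARCC1), -0.035 to 0.131 (SMARCC2) and -0.045 to 0.093 (ARID1B), in KIF20A OE -0.024 to 0.222 (SMARCE1), and in the interaction -0.059 to 0.005 (SMARCC1) and -0.063 to 0.021 (PBRM1). In KIF20A OE, SMARCC2 missed the threshold without EV replicate 1 or 3 or KIF20A OE replicate 1 or 2 (adjusted p = 0.058 to 0.087, limma), as it did with edgeR, DESeq2 and rescaling, and ARID1B missed it with those last 3. Among the other genes named, leaving out a library ended the Hs578T call of SMARCD3 (without BCSC replicate 1 or 2 or any non-BCSC replicate), the HCC70 calls of BCL7C (any BCSC replicate, non-BCSC replicate 1 or 2) and SMARCA1 (any BCSC replicate, non-BCSC replicate 3), and the interactions of BCL7C and SMARCA1 (10 and 9 of 12 libraries).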
